A study of Homo sapiens with 6 samples.

Results

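OAS2, IFIT2, TRIM22 and GBP2 are 4 genes known to be switched on by interferon. They were looked up by gene symbol among the 1305 genes of the deposited table, and all 4 were found once. RNA was sequenced from NCI-H292, a long-established human line from a mucoepidermoid lung carcinoma, after 48 hours with 50 nM mitoxantrone (3 libraries) or with DMSO diluted 1 in 1000 (3 libraries). Mitoxantrone is a topoisomerase II poison used in chemotherapy, which leaves breaks in DNA, and DMSO was the solvent control. The series title sets the comparison in work on senescence of lung cancer cells and on therapy directed at LUNX. The table had been restricted by the authors to genes past their own thresholds for this same contrast, so direction, fold and p of any gene in it describe a gene already chosen as different. The labels do not say whether each library is its own culture; p-values therefore reflect the spread among these libraries, which could be technical.

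Interferons are secreted proteins that bind receptors on the cell surface and activate JAK kinases, STAT transcription factors and IRF factors. These turn on many genes whose products restrict viruses and intracellular microbes, and airway epithelium is a classical site of that response. Many such genes also respond to other inputs, among them IRF factors activated by nucleic acid sensors. TRIM22 has additionally been described as a target of the tumour suppressor p53, which responds to DNA damage.

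TRIM22, IFIT2 and OAS2 were higher with mitoxantrone, 3.25-fold, 2.35-fold and 2.67-fold. GBP2 had a log2 fold change of -1.45 that did not pass with the adjustment used here, which can enlarge an adjusted p. In bulk RNA, a change in the share of cells that express a gene and a change in RNA per cell cannot be told apart. TRIM22 and IFIT2 were well expressed in both groups, whereas OAS2 and GBP2 rested on few reads. The 6 libraries held between 14762544 and 17817782 assigned reads, as computed from the deposited FPKM values and read counts. No interferon gene and no interferon receptor gene of the lists used was in the table. Genes outside it were not analysed here.

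OAS2 encodes an enzyme that senses double-stranded RNA and makes short 2′-5′-linked oligoadenylates, which activate the nuclease RNase L. Normalized reads, which are read counts divided by the authors' size factors, were 54.3, 61.5 and 77.3 in the mitoxantrone libraries, against 24.1, 16.5 and 30.8 in the DMSO libraries. Every mitoxantrone library was above every DMSO library. The means were 64.3 ± 11.8 with mitoxantrone and 23.8 ± 7.18 with DMSO (SD, n = 3 each). The log2 fold change was 1.42 with a standard error of 0.28, and the edgeR quasi-likelihood F-test gave a Benjamini-Hochberg adjusted p of 0.0025. The raw reads were 179 over the mitoxantrone libraries and 80 over the DMSO libraries. Their depth-corrected ratio was 2.66, with a 95% exact interval of 2.03 to 3.51 that covers counting error only. OAS2 was the 1 gene in the table among the 6 of the OAS and RNase L list.

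IFIT2 encodes a cytoplasmic RNA-binding protein of tetratricopeptide repeats, which is linked to restriction of viral translation and to cell death. It had 609.5, 597 and 549.6 normalized reads with mitoxantrone, against 257, 237 and 254 with DMSO. The groups were far apart and each was tight, with means of 585 ± 31.6 with mitoxantrone and 249 ± 10.7 with DMSO (SD, n = 3 each). The coefficient of variation between libraries was 5.4% with mitoxantrone and 4.29% with DMSO, where read counting alone would give 4.3% and 6.03%. The log2 fold change was 1.23 with a standard error of 0.13 (adjusted p = 7.9e-06, edgeR quasi-likelihood F-test, Benjamini-Hochberg adjusted). IFIT2 was the 1 member of the 5 IFIT genes in the table.

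TRIM22 encodes a RING-type ubiquitin ligase that restricts several viruses, HIV-1 among them. It had 2621, 2411 and 2542 normalized reads with mitoxantrone, against 759, 675 and 893 with DMSO. TRIM22 was the most abundant of the 4 genes and had the largest rise of the 3 that passed. The means were 2525 ± 106 with mitoxantrone and 775.5 ± 109.9 with DMSO (SD, n = 3 each). The coefficient of variation was 4.2% with mitoxantrone and 14.2% with DMSO, where counting alone would give 2.07% and 3.41%, so the DMSO libraries differed from one another by more than counting error. The log2 fold change was 1.70 with a standard error of 0.14 (adjusted p = 6.3e-07, edgeR quasi-likelihood F-test, Benjamini-Hochberg adjusted). TRIM22 was the 1 gene in the table of the TRIM5, TRIM6, TRIM22 and TRIM34 cluster.

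GBP2 encodes a large GTPase that gathers on vacuoles holding microbes and is strongly induced by interferon gamma in many cell types. It had 7, 5 and 10 raw reads with mitoxantrone, against 15, 16 and 42 with DMSO. As normalized reads these were 7.92, 5.21 and 10.7 with mitoxantrone and 12.9, 16.5 and 36.0 with DMSO. The groups did not overlap, but the gap between the highest mitoxantrone library and the lowest DMSO library was narrow, and DMSO replicate 3 was above the other DMSO libraries. The means were 7.95 ± 2.76 with mitoxantrone and 21.8 ± 12.4 with DMSO (SD, n = 3 each). Between mitoxantrone libraries the coefficient of variation was 34.7%, where counting alone would give 36.9%. Between DMSO libraries it was 57.0%, where counting alone would give 20.3%. The log2 fold change was -1.45 with a standard error of 0.48, and the edgeR quasi-likelihood F-test gave a Benjamini-Hochberg adjusted p of 0.12. Without DMSO replicate 3 the log2 fold change was -0.87 (adjusted p = 1 in edgeR), and without DMSO replicate 2 it was -1.61 (adjusted p = 0.039 in edgeR; 0.0026 to 1 over its alternatives). The ratio of summed reads, mitoxantrone over DMSO, was 0.358, with a 95% exact interval of 0.212 to 0.584 for counting error only.

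**Figure D1:**
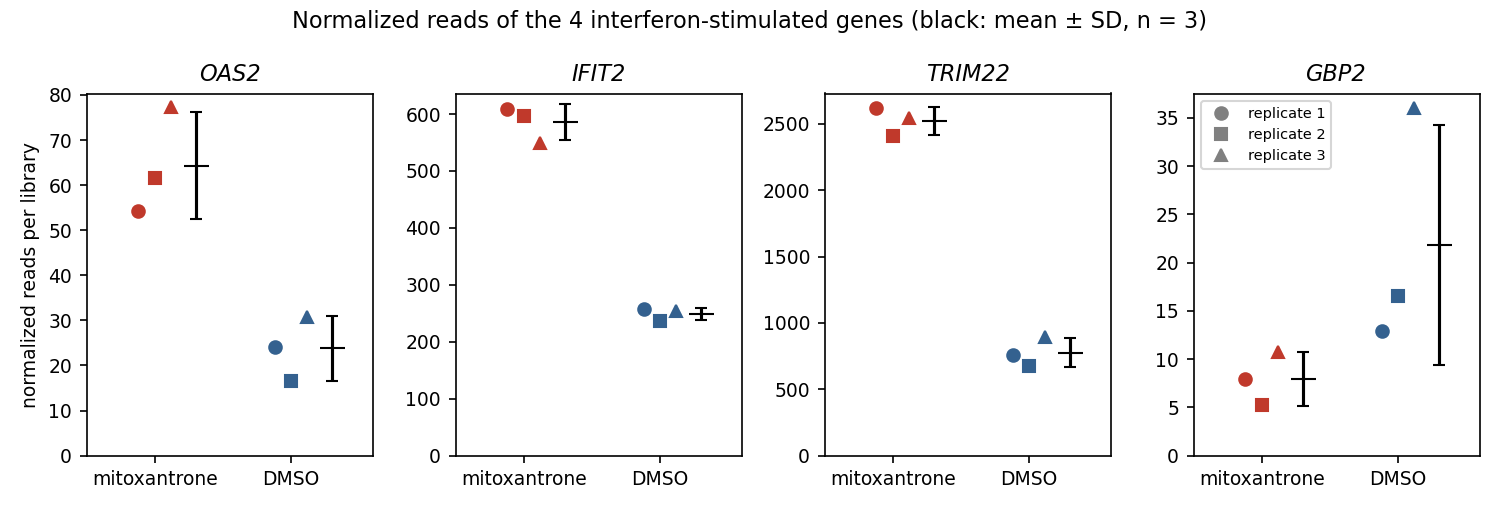
Normalized reads (linear axis from 0) of OAS2, IFIT2, TRIM22 and GBP2 in each library, mitoxantrone left of DMSO in every panel; coloured points are single libraries and the black bars the mean ± SD over 3 libraries. TRIM22 lay between 2411 and 2621 with mitoxantrone and between 675 and 893 with DMSO, while GBP2 lay between 5.21 and 10.7 with mitoxantrone and between 12.9 and 36.0 with DMSO.

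Of the 4 genes, 3 passed as higher and 0 as lower, where 92.0% of all genes in the table passed in either direction, 56.7% as higher and 35.3% as lower. At an unadjusted p under 0.05 the same edgeR test had 1 lower gene, GBP2, at 0.0082. All 1305 genes of the table passed at that unadjusted level, 793 as higher and 512 as lower. With the same adjustment, DESeq2 gave GBP2 an adjusted p of 0.18 (unadjusted 0.012), and limma on log2(FPKM + 1) one of 0.5 (unadjusted 0.035). All 4 genes had groups that did not overlap, as did 98.6% of the table (60.1% higher, 38.5% lower), so none of these counts sets these genes apart from the rest of the table. The authors' deposited table gave log2 fold changes of 1.24 for OAS2, 1.20 for IFIT2, 1.67 for TRIM22 and -1.01 for GBP2. The authors' deposited table gave them adjusted p-values of 2.9e-05, 1e-20, 3.3e-45 and 0.024. These were ranked among all genes the authors tested, so they are not on the scale of the adjusted p-values above. For GBP2 the authors' unadjusted Wald p was 0.0059. Only 2.61% of the genes in the authors' deposited table had a smaller absolute log2 fold change than GBP2, so GBP2 stood just inside the authors' threshold, and TRIM22 had 77.5% of the genes below it. For GBP2 the DESeq2 fit made here with the authors' size factors gave -1.46, a larger fall than the authors' -1.01. The reason for that difference was not tested. By the size of the fitted log2 fold change, TRIM22 ranked 415, OAS2 553 and IFIT2 670 among the 793 genes with a rise in the table, and GBP2 ranked 274 among the 512 genes with a fall.

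Size factors computed over the table's own genes gave other calls for the weaker rises. These factors centre a set that had been selected as changed and shift the median log2 fold change of the table by -0.69 (TMM) and -0.99 (DESeq2). OAS2 stood at a log2 fold change of 0.73 with TMM factors (adjusted p = 0.3 in edgeR) and of 0.43 with DESeq2 factors (adjusted p = 1 in edgeR; 0.00018 to 1 over its alternatives). IFIT2 stood at 0.54 with TMM factors (adjusted p = 0.022 in edgeR) and at 0.24 with DESeq2 factors (adjusted p = 1 in edgeR; 1.3e-12 to 1 over its alternatives). TRIM22 passed with each set of factors, and its smallest log2 fold change was 0.71 (adjusted p = 0.0036, edgeR quasi-likelihood test; 4.3e-26 to 0.0036 over its alternatives). GBP2 passed as lower with both, at -2.13 and -2.44 (adjusted p = 0.0082 and 0.0026, edgeR quasi-likelihood test). Over the whole table the split of calls was 740 higher and 461 lower with the authors' factors, 366 and 512 with TMM factors, and 219 and 512 with DESeq2 factors.

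**Figure D2:**
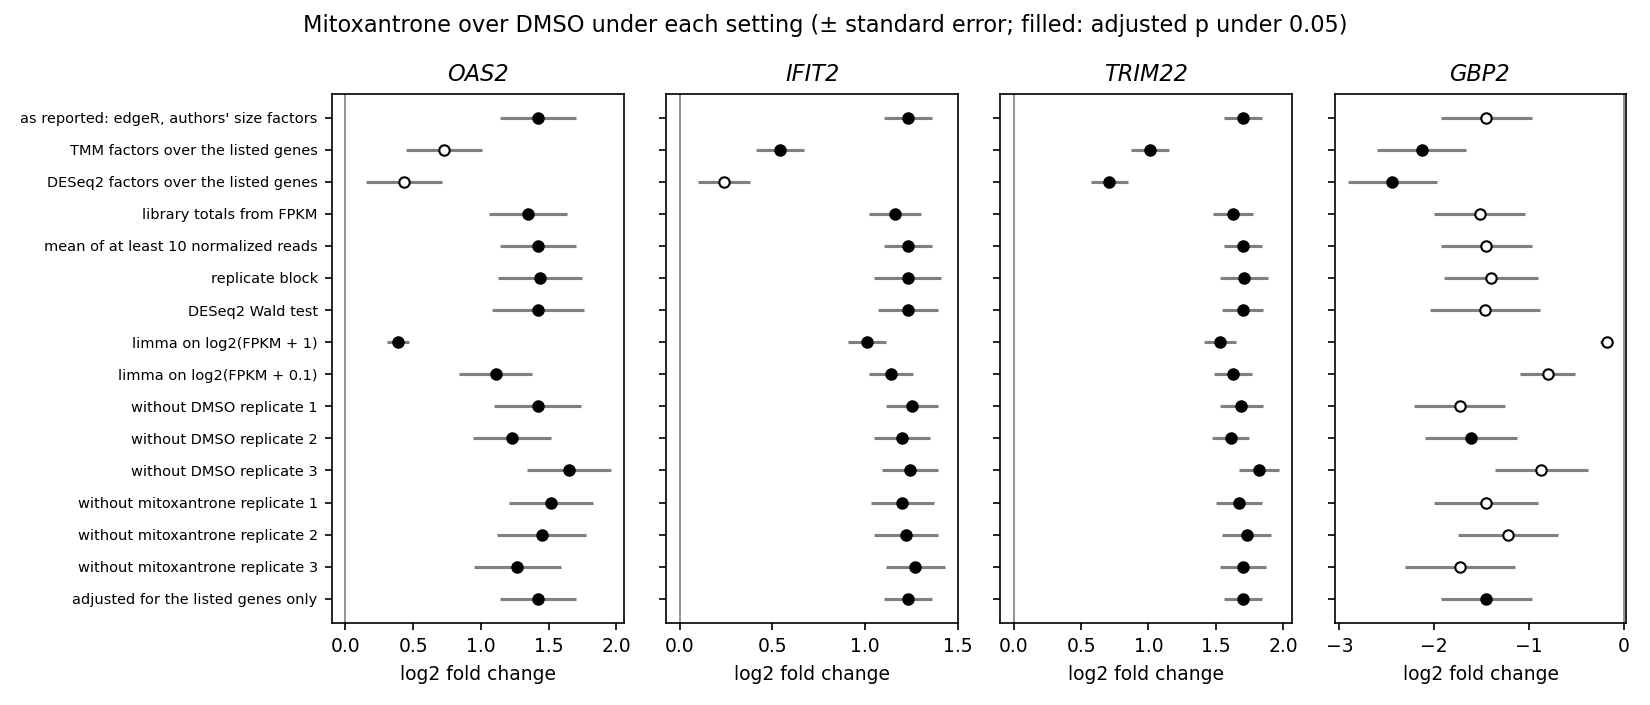
Log2 fold change, mitoxantrone over DMSO, of the 4 genes under every setting tried; bars are standard errors, filled points have an adjusted p under 0.05, and each panel has its own horizontal axis. TRIM22 was filled throughout and ran from 0.71 to 1.82, and GBP2 stayed below 0, from -2.44 to -0.18.

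The levels of the 4 genes can be set side by side as FPKM, which divides reads by gene length and library total. With mitoxantrone, TRIM22 had 25.7 ± 1.04 FPKM, IFIT2 10.3 ± 0.34, OAS2 0.63 ± 0.13 and GBP2 0.080 ± 0.03 FPKM (SD, n = 3 each). With DMSO, TRIM22 had 8.31 ± 1.41 FPKM, IFIT2 4.60 ± 0.37, OAS2 0.24 ± 0.08 and GBP2 0.23 ± 0.13 FPKM (SD, n = 3 each). The order was TRIM22, IFIT2, OAS2, GBP2 in the mitoxantrone libraries, where no neighbours in the order overlapped. In the DMSO libraries OAS2 (0.16 to 0.32 FPKM) and GBP2 (0.14 to 0.38 FPKM) overlapped and could not be ordered. The 4 genes summed to 35.7 to 37.3 FPKM with mitoxantrone and 11.4 to 15.2 FPKM with DMSO. TRIM22 made up 68.8% to 71.1% of that sum with mitoxantrone and 60.5% to 64.0% with DMSO.

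**Figure D3:**
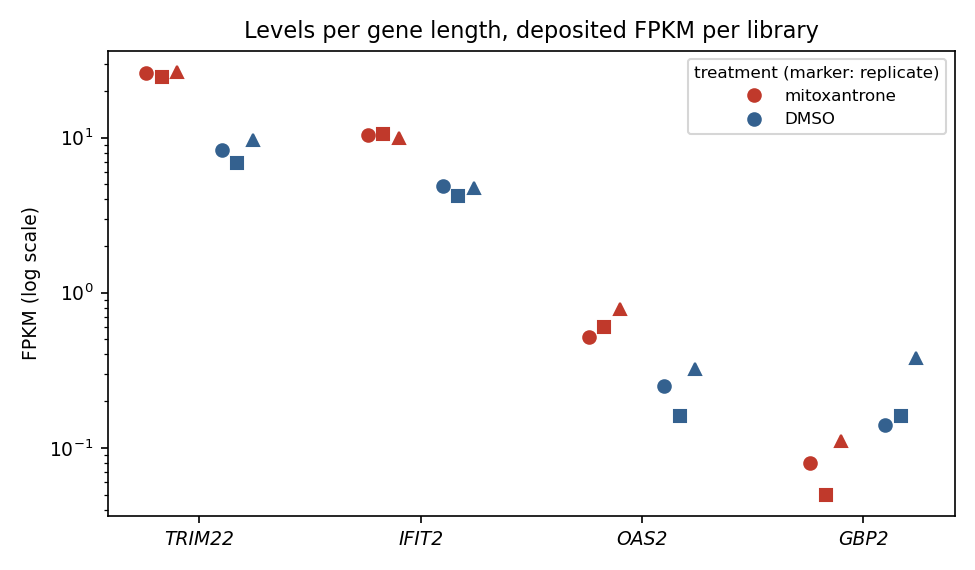
Deposited FPKM (log axis) of the 4 genes in each library, mitoxantrone in red left of DMSO in blue, with 1 point per library and the marker shape giving the replicate. OAS2 and GBP2 lie in the same range with DMSO (0.14 to 0.38 FPKM) and apart with mitoxantrone (0.52 to 0.78 for OAS2, 0.05 to 0.11 for GBP2).

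Ratios of 2 genes within a library do not depend on any size factor. Reads per kilobase of OAS2 over GBP2 were 6.87, 11.8 and 7.21 with mitoxantrone, against 1.87, 1.0 and 0.859 with DMSO. The groups did not overlap, and the mean log2 ratio differed by 2.84. TRIM22 over IFIT2 was 2.49, 2.34 and 2.68 with mitoxantrone, against 1.71, 1.65 and 2.04 with DMSO, a difference of 0.48 in the mean log2 ratio, again with no overlap. The OAS2 ratios overlapped between the groups: TRIM22 over OAS2 was 34.2 to 50.2 with mitoxantrone and 30.1 to 42.6 with DMSO, and IFIT2 over OAS2 was 12.8 to 20.2 with mitoxantrone and 14.8 to 25.8 with DMSO. The remaining pairs, TRIM22 and IFIT2 over GBP2, did not overlap either, with differences of 3.08 and 2.60. Over these 6 pairs, a two-sided exact permutation test gave p = 0.1 for each of the 4 pairs without overlap, the smallest p that 3 against 3 libraries allow (0.15 after Benjamini-Hochberg adjustment). It gave 0.4 and 0.5 for the overlapping pairs (0.48 and 0.5 adjusted). For the pairs over GBP2, the lack of overlap and so the p of 0.1 were fixed beforehand. Each gene of those pairs already had groups that did not overlap, GBP2 lower and its partner higher. Those p-values therefore add nothing to the values of the single genes.

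The libraries did not order alike in the 4 genes. DMSO replicate 2 was the lowest DMSO library for OAS2, IFIT2 and TRIM22, and DMSO replicate 3 was the highest for OAS2, TRIM22 and GBP2. With mitoxantrone, replicate 3 was the highest library for OAS2 and GBP2 and the lowest for IFIT2. After the group means were subtracted, log2 normalized reads correlated over the 6 libraries with r = 0.78 for OAS2 and TRIM22, 0.75 for TRIM22 and GBP2, 0.63 for OAS2 and GBP2, 0.44 for IFIT2 and TRIM22, 0.06 for OAS2 and IFIT2 and -0.22 for IFIT2 and GBP2. These values are descriptive, since the same library and its depth lie behind both genes of each pair.

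Of the 75 genes of the wider interferon-response list, 8 were in the table, of which 5 passed as higher, 2 as lower and GBP2 in neither direction, where 56.7% of the whole table passed as higher and 35.3% as lower. Their median log2 fold change was 1.27, beside 1.26 over the whole table. With DESeq2 factors over the table's genes 2 members passed as higher and 3 as lower, so the split turned over. Of the 71 list genes other than the 4 above, 4 were in the table: SLFN5 and ZNFX1 were higher and TNFSF10 and SLFN11 lower. SLFN5, a schlafen family protein that acts on viral transcription, had 1614 ± 174 normalized reads with mitoxantrone and 461 ± 86.5 with DMSO (SD, n = 3 each), a log2 fold change of 1.80. ZNFX1, a helicase that senses viral RNA at mitochondria, had 2536 ± 343 with mitoxantrone and 1029 ± 242 with DMSO, a log2 fold change of 1.30. SLFN11, which cleaves transfer RNAs and raises sensitivity to DNA-damaging drugs, had 296.5 ± 14.7 with mitoxantrone and 669 ± 35.8 with DMSO, a log2 fold change of -1.17. TNFSF10, which encodes the death ligand TRAIL, had 73.0 ± 7.26 with mitoxantrone and 291 ± 77.7 with DMSO. The edgeR quasi-likelihood F-test gave Benjamini-Hochberg adjusted p-values of 1e-06 for SLFN5, 6.4e-05 for ZNFX1, 1.1e-05 for SLFN11 and 4.1e-06 for TNFSF10. SLFN5 and SLFN11 lie 76.6 kb apart on chromosome 17 and moved in opposite directions.

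Upstream of these genes few members were in the table. Of 22 interferon genes and 6 interferon receptor genes, 0 were listed. Of 20 sensors of nucleic acid and their adaptors 1 was listed, TICAM1, which encodes the adaptor TRIF of TLR3 and TLR4. It had 615.5 ± 68.9 normalized reads with mitoxantrone and 278 ± 35.0 with DMSO (SD, n = 3 each). Of 22 signalling and transcription factor genes 2 were listed, both weakly expressed. SOCS1, an inhibitor of JAK kinases that is itself induced by interferon, had 19.1 ± 1.19 with mitoxantrone and 4.06 ± 1.88 with DMSO, and BATF2, a leucine zipper factor induced by interferon, had 25.3 ± 4.68 with mitoxantrone and 8.98 ± 2.96 with DMSO (SD, n = 3 each). Of 25 antigen presentation genes 1 was listed, HLA-DRB1, a chain of the class II receptor for peptides, with 22.5 ± 5.99 with mitoxantrone and 7.38 ± 1.70 with DMSO; its reads may be shared with HLA-DRB5, which was also in the table. These 4 genes passed as higher, with adjusted p-values of 4e-05 for TICAM1, 0.0041 for SOCS1, 0.02 for BATF2 and 0.019 for HLA-DRB1 (edgeR quasi-likelihood F-test, Benjamini-Hochberg adjusted). In the GBP family of 7, GBP6 was listed beside GBP2. It had 11.3, 11.5 and 17.2 normalized reads with mitoxantrone and 6.02, 3.09 and 0.857 with DMSO, a log2 fold change of 1.96 (edgeR adjusted p = 0.056). Over the 177 genes of all these lists together, 13 were in the table, of which 9 passed as higher, 2 as lower and 2 in neither direction, beside the 56.7% higher and 35.3% lower of the whole table.

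**Figure D4:**
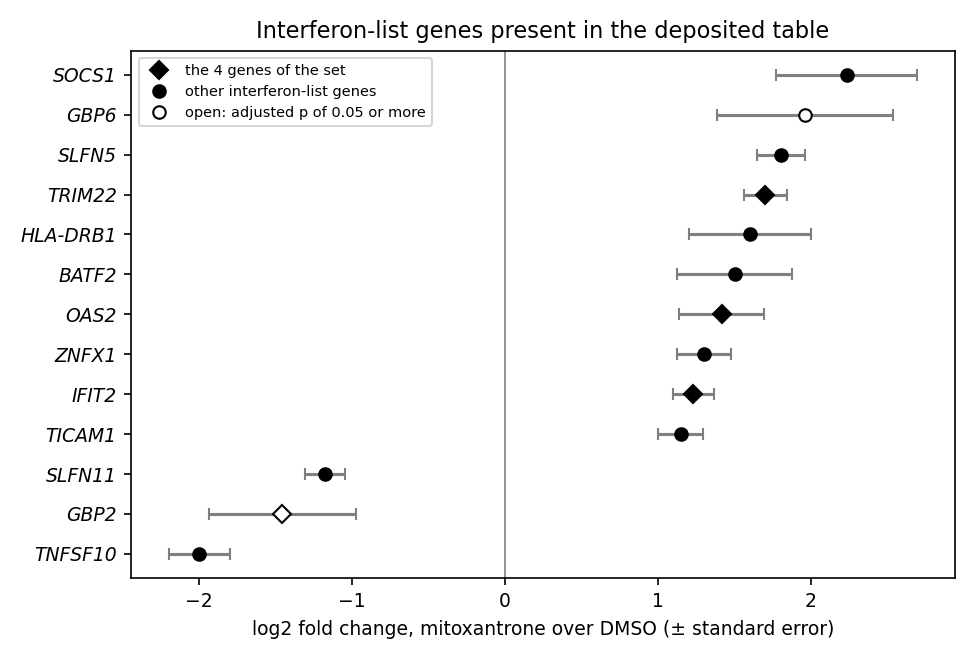
Log2 fold change, mitoxantrone over DMSO, with standard errors, of the 13 genes of the interferon lists that were in the table; diamonds are OAS2, IFIT2, TRIM22 and GBP2, and open symbols have an adjusted p of 0.05 or more. TNFSF10 is the lowest (3.99-fold lower) and SOCS1 the highest (4.7-fold higher), and the open symbols are GBP2 and GBP6.

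The genes whose log2 normalized reads over the 6 libraries were most like each of the 4, by Pearson correlation among table genes with a mean of at least 50 normalized reads, were taken as a description. For OAS2 they were the chloride cotransporter gene SLC12A7 (r = 0.997), ZNFX1 (0.994) and KLHDC7A (0.994). For IFIT2 they were the glutamate transporter gene SLC1A1 (0.999), PLAT (0.998), which encodes tissue plasminogen activator, and PRICKLE2 (0.998). For TRIM22 they were CHRNB1 (0.998), a subunit of the muscle acetylcholine receptor, DNAJC18 (0.997) and XPC (0.997), which recognises DNA damage in nucleotide excision repair. For GBP2 they included GPRIN2 (0.921) and HCAR2 (0.908). All these values hold the difference between the treatments, which every gene of the table has, and the points share their libraries.

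The deposited table places OAS2 at chr12:113416200-113449528 on the plus strand, IFIT2 at chr10:91061712-91069033 on the plus strand, TRIM22 at chr11:5710919-5758319 on the plus strand and GBP2 at chr1:89571815-89616139 on the minus strand. The genome build is not given in the sources used here, and none of the 4 intervals equals that of the same gene in GENCODE 29 on GRCh38. In GENCODE 29, TRIM22 overlaps TRIM5 on the other strand and OR56B1 and the pseudogenes OR52U1P and OR52P1P on its own. IFIT2 overlaps LIPA on the other strand and the non-coding gene AL353751.1 on its own. GBP2 overlaps GBP7 on the same strand, and OAS2 overlaps an antisense transcript. None of the overlapping genes was in the deposited table. Whether the libraries kept the strand is not stated, so reads of partners on the other strand cannot be told apart. Strand would not separate the partners on the same strand, and reads of the similar GBP genes may have been dropped or divided. In the table's coordinates GBP6 is the nearest listed neighbour of GBP2, 213.5 kb away, and FAS, a death receptor gene with a log2 fold change of 1.56, lies 286.2 kb from IFIT2.

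Markers of other cell types were read where the table held them. Of 7 leukocyte, 6 fibroblast and 3 endothelial markers, 1 of each was listed, and all 3 passed as lower. CD14 had 23.6 to 27.1 normalized reads with mitoxantrone and 43.0 to 70.3 with DMSO, COL1A1 119.9 to 159 with mitoxantrone and 293 to 391.5 with DMSO, and CDH5 188 to 229.7 with mitoxantrone and 386 to 517 with DMSO. Of 6 epithelial markers KRT8 and KRT18 were listed, both higher, with KRT8 at 79950 to 98870 with mitoxantrone and 28410 to 38090 with DMSO. Among all 1305 genes, 56.7% passed as higher and 35.3% as lower. Each listed marker was a gene already chosen as different, and the markers not listed were not analysed. These calls therefore do not describe the marker groups as a whole. The part of other cells in the results was not tested.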

How the data were processed

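One table of 1305 genes was used. It holds, as deposited by the authors, raw read counts and FPKM per gene and library. It also holds gene lengths, the mean normalized count (a signal over all libraries), log2 fold changes with standard errors, a Wald score and p-values, all from the authors' test per the file headers. HISAT2 2.0.1, Cufflinks 2.2.1, HTSeq 0.6.1, DESeq2 and cutadapt 1.9.1 appear, without a role, per the submitters' processing notes. The authors' size factors were solved from the read counts and mean normalized counts (largest relative error 5.0e-10) and library totals from FPKM (100% of values given back within 0.0051 or 0.02 percent).

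All genes were fitted with the edgeR 4.0.16 quasi-likelihood test (R 4.3.3) for treatment, with no filter. The raw and adjusted p-values of the authors show 18306 tests, and the Benjamini-Hochberg adjustment used that number, with ranks among the 1305 genes only, which can enlarge an adjusted p and cost calls near the threshold of 0.05. Among all genes the authors tested, the last gene of the table had rank 4965. GBP2 and GBP6, given as not passing, are among the genes whose calls this can affect. Folds and dispersions from a table of selected genes tend to be too large and too low. Standard errors are the log2 fold change over the root of the F statistic. Alternatives used limma 3.58.1 and DESeq2 1.42.0. The fit was tested on simulated data in which most genes did not change. That test cannot speak to the effect of a table whose genes had all been selected as changed. Likeness used log2(normalized reads + 1). Exact permutation tests and intervals (95%, Clopper-Pearson) used scipy 1.17.1.

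The genes and lists were chosen with earlier results of these data known. Named were the 4 genes, every listed gene of the interferon lists and of the cell type marker lists, and for each of the 4 the 3 genes of highest correlation, of which 1 is not reported here; genes named outside that rule (FAS, HLA-DRB5 and genes of the annotation terms) were chosen after their values were seen. No 2 libraries of a group agreed within sampling noise (mean chi-square per gene 2.91 to 25.43). Columns of per-library values not used numbered 0.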

Additional observations from a re-analysis of the deposited data

How the results depend on the processing

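The log2 fold changes of the 4 genes kept their sign under all 15 alternatives, and TRIM22 passed under each. The split of table calls turned to more lower than higher only with the TMM and DESeq2 factors over the table's genes. Scaling by library totals from FPKM gave 1.35 for OAS2, 1.16 for IFIT2, 1.63 for TRIM22 and -1.52 for GBP2. It changed no call of the 4 genes, and 723 table genes were called higher and 483 lower. With TMM factors over the table's genes OAS2 missed the threshold at a log2 fold change of 0.73, GBP2 passed at -2.13, and 366 table genes were called higher and 512 lower. With DESeq2 factors over the table's genes the log2 fold change was 0.43 for OAS2, 0.24 for IFIT2 and -2.44 for GBP2; OAS2 and IFIT2 then missed the threshold, GBP2 passed, 2 interferon-response genes were called higher and 3 lower, and 219 table genes higher and 512 lower. Both sets of factors are built to centre genes that were mostly higher. Adjusting for the 1305 listed genes alone let GBP2 pass at -1.45, but it passed every gene of the table (793 higher and 512 lower). The main adjustment pairs 18306 tests with ranks among the 1305 listed genes only, so neither adjustment uses the ranks among all genes tested. Leaving out each library gave -1.73 to -0.87 for GBP2, 1.20 to 1.27 for IFIT2, 1.23 to 1.65 for OAS2 and 1.61 to 1.82 for TRIM22, and GBP2 passed without DMSO replicate 2 (adjusted p = 0.039, edgeR quasi-likelihood test); the cause was not tested. On log2(FPKM + 1) in limma, which understates changes of low genes, OAS2 had 0.39 and GBP2 -0.18. The replicate block gave 1.44, 1.23, 1.71 and -1.40 for OAS2, IFIT2, TRIM22 and GBP2 with no call changed, and 736 table genes higher and 463 lower. The labels do not say whether the numbers pair the libraries. Deviations of same-numbered libraries correlated at -0.44, -0.26 and 0.23, and of the 6 libraries 1, DMSO replicate 3, correlated best with the library of its own number. So few libraries per group cannot show whether same-numbered libraries share a culture or batch. With 22 reads over the mitoxantrone libraries and 73 over the DMSO libraries, depth limits what can be said of GBP2.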

Other observations

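The deposited annotation assigns biological process terms to each gene, and those that name interferon or viruses and that at least 1 of the 4 genes carries were read after the values had been seen. The type I interferon signalling term held 4 table genes: SOCS1, OAS2 and IFIT2 passed as higher and GBP2 passed in neither direction, with a median log2 fold change of 1.32. The term for signalling by interferon gamma held 8, of which 7 passed as higher and GBP2 in neither direction; the higher ones included the adhesion genes ICAM1 and CD44 and the class II gene HLA-DRB1, and the median was 1.51. The term for defence against viruses held 13, with 10 higher and 3 lower and a median log2 fold change of 1.23, beside 1.26 over the whole table. Its higher genes included the cytidine deaminases APOBEC3C, APOBEC3F and APOBEC3H, which mutate viral genomes, and its lower ones were DDIT4, SLFN11 and KCNJ8. The term for response to viruses held 12, with 8 higher, 3 lower and 1 in neither direction (median 1.44), and the term for modulation of the host cell by viruses, which TRIM22 carries, held 19, with 14 higher and 5 lower (median 1.48). The edgeR quasi-likelihood test passed 56.7% of all table genes as higher and 35.3% as lower, so the counts describe the annotation of a selected table only.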
